A study of Mus musculus with 21 samples.

Results

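Gene expression in the right lung of mice at day 28 after left pneumonectomy, the surgical removal of the left lung, was set against its level before that operation. The comparison used 6 of the 21 arrays of a time course: 3 labelled day 28, from male C57BL/6 mice after left pneumonectomy, and 3 labelled day 0, from male C57BL/6 mice that had not yet been operated on. Both groups had a single array for each region (medial lobe, cardiac lobe, whole right lung), so every day 28 array was paired with the day 0 array of its region. The other arrays were from days 3, 7, 14 and 56 after pneumonectomy and from day 56 after sham surgery, with the same 3 regions. They served for the spread of the data and for comparisons of day 28 with other days. No further genotype or agent is named, no age is given, and nothing states if lobes of 1 day came from 1 animal, from several or from a pool. The whole right lung may contain the lobes that were also taken singly. The p-values therefore measure how far differences vary between these regions, and that spread may be partly technical.

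After removal of one lung, the remaining lobes of an adult mouse grow into the free space. Inflammation and division of alveolar, endothelial and mesenchymal cells come first, and matrix is laid down as new alveolar septa form. A sample taken weeks later asks how completely expression is back at its starting level.

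All values are log2 intensities after RMA (robust multi-array averaging), so a difference of 1 is a 2-fold change. Values are given in the order medial lobe, cardiac lobe, whole lung. Lung identity genes were bright in both groups. Sftpc, which encodes surfactant protein C of alveolar type II cells, had 13.35, 13.36 and 13.26 at day 28, against 13.29, 13.40 and 13.43 at day 0. Nkx2-1, the transcription factor of lung epithelium, had 9.83, 9.68 and 9.62 at day 28, against 9.80, 9.81 and 9.52 at day 0. The 95% interval of the difference ran from -0.20 to 0.10 for Sftpc and from -0.18 to 0.19 for Nkx2-1. The mean of 60 small RNA genes was 7.18, 7.23 and 8.08 at day 28, against 6.88, 6.90 and 7.73 at day 0, higher at day 28 in every region. The interquartile range of all probe sets was 3.73, 3.75 and 3.56 at day 28, against 3.81, 3.86 and 3.76 at day 0, lower at day 28 in every region. The part of these measures in the results was not tested.

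Of 19938 genes tested, 0 differed between day 28 and day 0 (0% called, limma, Benjamini-Hochberg adjusted p under 0.05, smallest adjusted p = 0.115). At an unadjusted p under 0.05 there were 1439 genes (7.22%), 695 higher at day 28 (3.49%) and 744 lower (3.73%). The count of 0 depended on which arrays were kept and on how they were weighted or centred. Without the day 7 cardiac lobe and the day 56 pneumonectomy whole lung arrays, which belong to neither group and which earlier results had set apart, 1 gene rose and 18 fell (smallest adjusted p = 0.0114). The riser was Fxyd6. Among the fallers were the interferon-inducible genes Gbp5, Ifi208, Ifit1bl2, Ifit3 and Ifit3b, the clock genes Cry1, Per2 and Tef, and Abcg2, Sult1a1, Bex4, Fam107a and Vpreb3. With arrays weighted by quality, a setting chosen after seeing the data, 32 rose and 73 fell, and all 19 genes were among them. Gbp5 alone was called when the day 0 whole lung array was left out.

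Most genes were bounded closely. The 95% interval of the difference lay within 0.5 of zero for 16208 genes (81.3%) and within 1 for 19635 (98.5%). The median absolute difference was 0.0873 and the median standard error 0.111. As fitted differences from day 0, the SD over all genes was 0.296 at day 3, 0.318 at day 7, 0.214 at day 14, 0.161 at day 28, 0.219 at day 56 and 0.188 in day 56 sham. These comparisons share the day 0 arrays. Genes called in them numbered 1336 at day 3 (6.7%), 1733 at day 7 (8.69%), 240 at day 14 (1.2%), 0 at day 28, 18 at day 56 (0.0903%) and 76 in sham (0.381%). The day 7 and day 56 pneumonectomy values include the cardiac lobe and whole lung arrays set apart above. The part of those arrays in the ranking of days was not tested.

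The regions differed among themselves. Across the 19938 genes, the day 28 minus day 0 differences correlated by 0.171 between the medial and cardiac lobes, by 0.202 between the medial lobe and the whole lung and by 0.272 between the cardiac lobe and the whole lung. Genes are not independent replicates, so these values only describe the arrays. Higher in all 3 regions were 3951 genes (19.8%) and lower in all 3 were 3651 (18.3%). Past 0.5 in all 3 regions were 12 higher (0.0602%) and 18 lower genes (0.0903%), and past 1 in all 3 regions was none in either direction. The 3 day 28 arrays did not overlap the 3 day 0 arrays for 3007 genes (15.1%), 1902 higher (9.54%) and 1105 lower (5.54%), so a lack of overlap alone is common.

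The 5 genes with the smallest p-values in each direction are described next, and none of the 10 is a called change. They were picked by these values, so their separation is a description. Among the lower ones were interferon-inducible genes. Gbp5, a guanylate-binding protein induced by interferon gamma (probe set 10496539), had 6.00, 6.11 and 5.86 at day 28, against 6.80, 6.86 and 6.38 at day 0. Every day 28 array lay below every day 0 array, and the fitted difference was -0.69 ± 0.11 (± SE, here and below; adjusted p = 0.115). Ifit3b, of the interferon-induced tetratricopeptide repeat family that restricts viral RNA (probe set 10462621), had 6.26, 6.29 and 5.78 at day 28, against 7.30, 7.27 and 6.88 at day 0. The groups did not overlap, and the difference was -1.04 ± 0.17 (adjusted p = 0.115), with an interval of -1.40 to -0.68. Its near-identical neighbour Ifit3 leaves it uncertain which copy was measured. Both genes were also below day 0 in sham, where Gbp5 fell by 0.58 (adjusted p = 0.0303) and Ifit3b by 0.92 (adjusted p = 0.0286), and their differences of day 28 minus sham were -0.11 ± 0.11 and -0.12 ± 0.17.

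The other 3 lower genes belong to transport, detoxification and the clock. Abcg2, an efflux transporter used as a marker of side population cells, had 6.87, 6.94 and 6.82 at day 28, against 7.21, 7.49 and 7.18 at day 0 (-0.42 ± 0.07). Sult1a1, a sulfotransferase acting on phenols, had 8.15, 7.97 and 8.18 at day 28, against 8.82, 8.62 and 8.53 at day 0 (-0.56 ± 0.09). Cry1, a repressor of the circadian clock, had 6.55, 6.40 and 6.57 at day 28, against 6.97, 7.32 and 7.15 at day 0 (-0.64 ± 0.11, adjusted p = 0.122). For these 3 genes the groups did not overlap.

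On the higher side, Fxyd6, a regulator of the sodium pump, had 9.11, 9.19 and 9.34 at day 28, against 8.58, 8.56 and 8.82 at day 0 (0.56 ± 0.11, adjusted p = 0.144). Prr15, which encodes a proline-rich protein, had 8.63, 8.68 and 8.67 at day 28, against 8.03, 7.93 and 8.14 at day 0 (0.63 ± 0.13). Folr1, a folate receptor, had 6.73, 7.09 and 7.03 at day 28, against 6.45, 6.46 and 6.61 at day 0 (0.45 ± 0.09). The groups did not overlap in these 3 genes, nor in Nxnl2 (0.40 ± 0.08) and the olfactory receptor gene Olfr46 (0.40 ± 0.08). Olfr46 was dim, with 4.59, 4.73 and 4.88 at day 28, against 4.18, 4.35 and 4.48 at day 0.

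**Figure D1:**
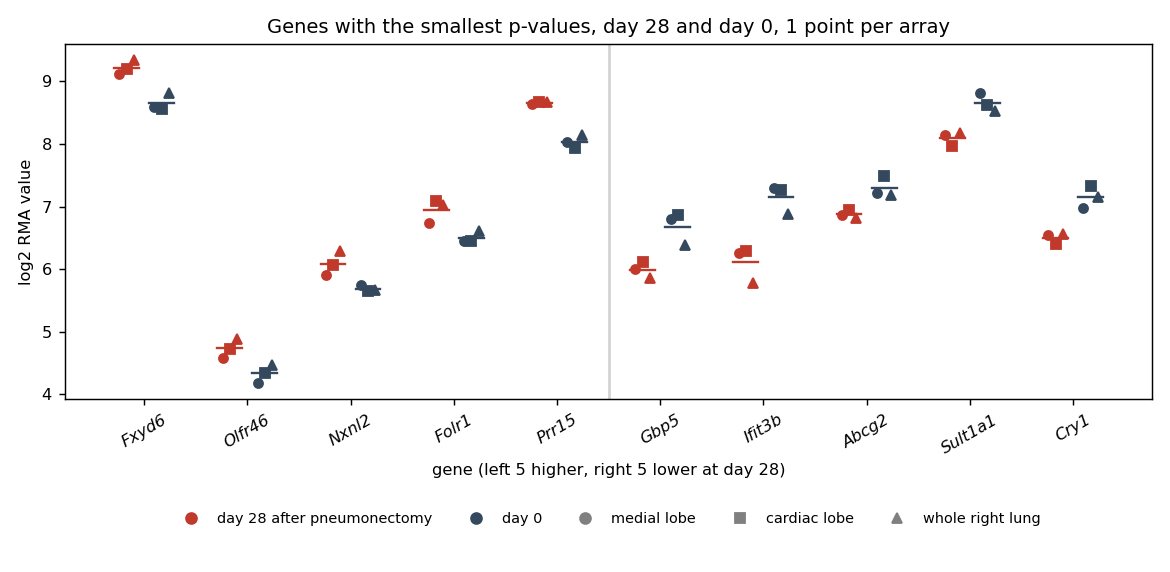
Log2 RMA value (y axis) of the 10 genes with the smallest p-values (x axis), 1 point per array with the shape giving the region and a bar at the group mean, day 28 left of day 0. Ifit3b lies at 5.78 to 6.29 at day 28 and at 6.88 to 7.30 at day 0, and no gene shown overlaps between the groups or passes the test.

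Of the 30 genes past 0.5 in all 3 regions, 22 had a symbol that was neither predicted nor a small RNA. Several were interferon-inducible: besides Gbp5 and Ifit3b these were Ifit3 (-0.66 ± 0.16), Ifi214 (-0.60 ± 0.12), Ifi208 (-1.12 ± 0.27, with near-identical relatives) and Cxcl9, a T cell chemoattractant. Cxcl9 had 6.32, 7.41 and 6.40 at day 28, against 8.01, 8.37 and 7.55 at day 0, and its -1.27 ± 0.28 was the lowest fitted difference of all genes. The groups did not overlap. Against the same day 0 arrays Cxcl9 was at -1.84 at day 14, -1.63 at day 56 and -1.74 in sham, and its day 28 minus sham difference was 0.47 ± 0.28. Also lower were Bex4 (-0.83 ± 0.15), Fam107a (-0.87 ± 0.16), the glucose transporter gene Slc2a12 (-0.62 ± 0.21), the cyclin A2 gene Ccna2 (-0.56 ± 0.25) and the clock genes Per2 and Ciart. On the higher side Jchain, the joining chain of secreted IgA and polymeric IgM, had 8.96, 8.58 and 8.38 at day 28, against 6.38, 7.31 and 7.87 at day 0 (1.45 ± 0.60). Its day 28 values all lay above its day 0 values, which were themselves widely spread.

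Promoters of interferon-inducible genes are shown because these genes lay lower together. Promoters of genes induced by type I interferon often hold an interferon-stimulated response element. The core searched was TTTC, any 2 bases, TTTC, on both strands and with overlapping matches allowed, in RefSeq promoter windows of GRCm38.p6 from 250 bases before to 50 after each gene start. It was present in 1131 of 32851 windows of all genes (3.44%). A set of 19 interferon-inducible genes was searched, the 16 measured genes of the interferon list plus Ifit3b, Gbp5 and Ifit1bl2, which were added after their values were seen. Of these 14 had a window and 10 of them held the core, in 10 of 17 windows (58.8%). The windows of Cxcl9, Ifit2, Oasl2 and Irf7 did not hold it. The windows of Ifit1 and Ifit1bl2 overlap and hold the same matches. The 200 bases before the start of 4 genes that hold the core follow, 5′ to 3′ along the gene, with the core in capitals.

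Ifit3b (chr19:34607757-34607956, plus strand): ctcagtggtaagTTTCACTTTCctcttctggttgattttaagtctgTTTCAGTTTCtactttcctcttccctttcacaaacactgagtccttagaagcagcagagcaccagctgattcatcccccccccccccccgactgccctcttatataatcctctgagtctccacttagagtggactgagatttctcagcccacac

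Ifit3 (chr19:34583329-34583528, plus strand): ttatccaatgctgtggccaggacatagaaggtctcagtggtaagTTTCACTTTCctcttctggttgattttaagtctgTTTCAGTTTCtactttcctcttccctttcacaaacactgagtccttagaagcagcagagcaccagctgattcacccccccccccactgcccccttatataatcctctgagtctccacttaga

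Ifit1 (chr19:34640689-34640888, plus strand): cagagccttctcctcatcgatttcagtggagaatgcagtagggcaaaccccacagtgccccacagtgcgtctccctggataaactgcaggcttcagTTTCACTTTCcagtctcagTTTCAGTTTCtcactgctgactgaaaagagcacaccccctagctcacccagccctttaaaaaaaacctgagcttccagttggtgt

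Gbp5 (chr3:142496734-142496933, plus strand): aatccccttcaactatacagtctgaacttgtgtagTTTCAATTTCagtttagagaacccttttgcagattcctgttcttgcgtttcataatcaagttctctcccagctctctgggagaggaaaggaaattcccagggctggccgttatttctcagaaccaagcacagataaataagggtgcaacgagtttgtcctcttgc

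Ifit3b holds the core at -188 and -154, counted from the gene start, and Ifit3 holds it with the same letters at -156 and -122. Ifit1 holds it at -104 and -85 and Gbp5 at -165. A match is a description of the letters and not a binding site.

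Of 16 measured genes of the interferon response list (22 listed), 0 were called. At an unadjusted p under 0.05, 0 were higher and 9 lower, beside 3.49% and 3.73% of all genes. Lower in all 3 regions were 13, beside 18.3% of all genes. The median difference was -0.36 (-0.44 in the medial lobe, -0.48 in the cardiac lobe and -0.30 in the whole lung), beside -0.000433 over all genes. Ifit1, which blocks translation of viral RNA, had 8.15, 8.06 and 8.30 at day 28, against 9.02, 8.89 and 8.65 at day 0 (-0.68 ± 0.14, adjusted p = 0.202), without overlap. Rsad2, the antiviral enzyme viperin, had 6.05, 6.18 and 6.19 at day 28, against 6.66, 6.86 and 6.28 at day 0 (-0.46 ± 0.16). Oas2, an activator of RNase L, had 6.60, 6.67 and 6.66 at day 28, against 6.44, 6.54 and 6.26 at day 0 (0.23 ± 0.24), so it did not share the direction. Against day 0 the median of the list was 0.09 at day 3, -0.12 at day 7, -0.33 at day 14, -0.36 at day 28, -0.44 at day 56 and -0.26 in sham, all sharing the day 0 arrays. The list's median for day 28 minus sham was -0.0034.

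T cell and NK cell genes also lay lower. Of 13 measured genes 0 were called. At an unadjusted p under 0.05, 6 were lower and 0 higher, beside 3.73% and 3.49% of all genes. The median was -0.37 (-0.04 in the medial lobe, -0.63 in the cardiac lobe and -0.46 in the whole lung). Cd3g, a chain of the T cell receptor complex, had 7.13, 7.03 and 6.72 at day 28, against 7.59, 8.33 and 7.30 at day 0 (-0.78 ± 0.17, adjusted p = 0.239). Cd4, the coreceptor of helper T cells, had 6.03, 5.94 and 5.93 at day 28, against 6.12, 6.60 and 6.68 at day 0 (-0.50 ± 0.12). Neither gene overlapped between the groups, and the mean level of the list was 7.15 to 7.41 at day 28, against 7.48 to 7.72 at day 0. In tissue RNA, fewer cells of a type and less RNA per cell cannot be told apart. The list's median against day 0 was -0.67 at day 3, -0.86 at day 7, -0.66 at day 14, -0.63 at day 56 and -0.62 in sham, with the same day 0 arrays. All lay further below day 0 than day 28 did, and the median for day 28 minus sham was 0.15. B cell and plasma cell genes had a median of -0.18 that varied by region (0.35 in the medial lobe, -0.19 in the cardiac lobe and -0.59 in the whole lung).

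The early response was followed to day 28. Early genes were those called in the mean of days 3 and 7 against day 56 sham, a contrast that shares no array with day 28 or day 0. They were 1591 of all genes (7.98%), 848 higher (4.25%) and 743 lower (3.73%). Of the 848 early higher genes 0 were called at day 28 against day 0. At an unadjusted p under 0.05, 57 were higher (6.72%) and 54 lower (6.37%), beside 3.49% and 3.73% of all genes. Their median difference from day 0 was 0.58 at day 3, 0.43 at day 7, 0.10 at day 14 and -0.01 at day 28, and -0.10 in sham. The day 3, day 7 and sham values are those that picked the genes. Their median for day 28 minus sham was 0.10. At day 28 the regions had medians of -0.02, 0.02 and -0.04 against day 0. A total of 410 (48.3%) lay above 0, beside 49.8% of all genes. The interval was within 0.5 for 497 of the 848 genes (58.6%) and within 1 for 802 (94.6%), beside 81.3% and 98.5% of all genes.

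Of the 743 early lower genes 0 were called at day 28. Their median difference from day 0 was -0.33 at day 3, -0.28 at day 7, -0.04 at day 14 and -0.10 at day 28, and 0.16 in sham. The day 3, day 7 and sham values are again those that picked the genes. At day 28 the median was -0.01 in the medial lobe, -0.16 in the cardiac lobe and -0.13 in the whole lung. Below 0 lay 580 genes (78.1%), beside 50.2% of all genes. At an unadjusted p under 0.05, 89 were lower (12%) and 5 higher (0.673%), beside 3.73% and 3.49% of all genes. The interval was within 0.5 for 535 (72%) and within 1 for 733 (98.7%), beside 81.3% and 98.5% of all genes.

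**Figure D2:**
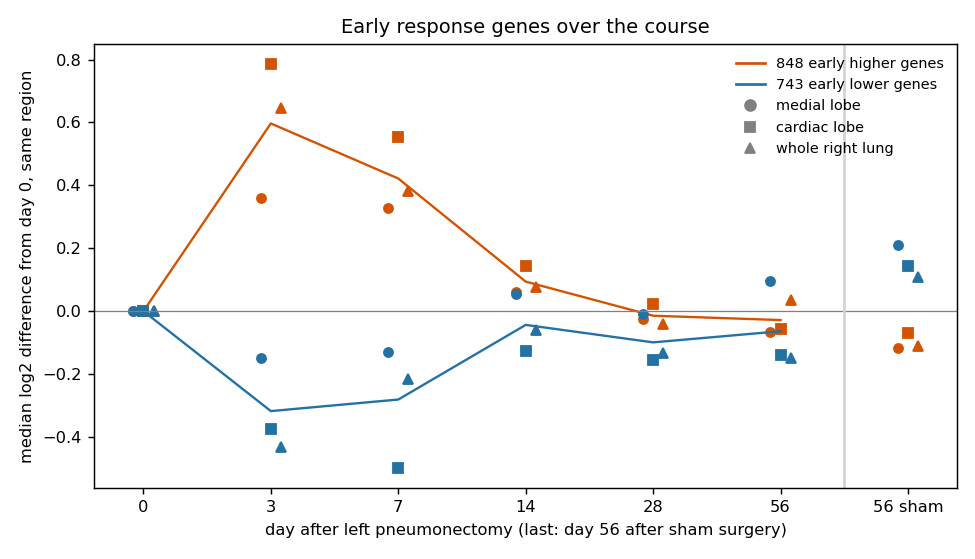
Median log2 difference from the day 0 array of the same region (y axis) of 848 early higher and 743 early lower genes by day after pneumonectomy (x axis), with day 56 sham at the right, 1 point per region and lines through the mean of the 3 regions. At day 28 the early higher genes sit at -0.04 to 0.02 and the early lower genes at -0.16 to -0.01. The day 3, day 7 and day 56 sham values picked the genes.

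The strongest early responders were spread at day 28. Timp1, an inhibitor of matrix metalloproteinases with an early difference of 3.13, had 8.51, 8.80 and 8.21 at day 28, against 7.59, 7.80 and 7.93 at day 0. Every day 28 array lay above every day 0 array (0.74 ± 0.23, adjusted p = 0.482, interval 0.26 to 1.22). Saa3, an acute-phase serum amyloid, had 7.88, 8.28 and 7.01 at day 28, against 6.95, 6.44 and 6.92 at day 0 (0.95 ± 0.56). Its whole lung array at day 28 was close to the day 0 arrays. Prg4, which encodes the lubricant proteoglycan 4, had 7.12, 6.47 and 6.24 at day 28, against 5.44, 5.46 and 6.65 at day 0 (0.76 ± 0.44), lower at day 28 than at day 0 in the whole lung.

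Other early genes were less well bounded. Clca1, a secreted protein of mucous cells, had 7.27, 8.09 and 8.30 at day 28, against 6.62, 9.13 and 9.58 at day 0, with an interval of -2.32 to 1.21. The interval of Arg1, the arginase of alternatively activated macrophages, was -1.61 to 1.87, and that of Chil4, whose near-identical relatives leave the copy uncertain, -1.51 to 1.35. Differences of this size cannot be told from none with these arrays. Among the early lower genes, Lipg, an endothelial lipase, had 7.20, 7.45 and 6.91 at day 28, against 7.46, 7.98 and 7.44 at day 0 (-0.44 ± 0.17, adjusted p = 0.601, interval -0.80 to -0.09). Lrat, which esterifies retinol, had 8.51, 8.62 and 8.26 at day 28, against 8.61, 8.87 and 9.97 at day 0 (-0.69 ± 0.33), and its day 0 whole lung array stood above the rest. Mfsd2a, a lysophospholipid transporter, was at 0.01 ± 0.34 and Npr3, a clearance receptor of natriuretic peptides, at 0.11 ± 0.17.

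**Figure D3:**
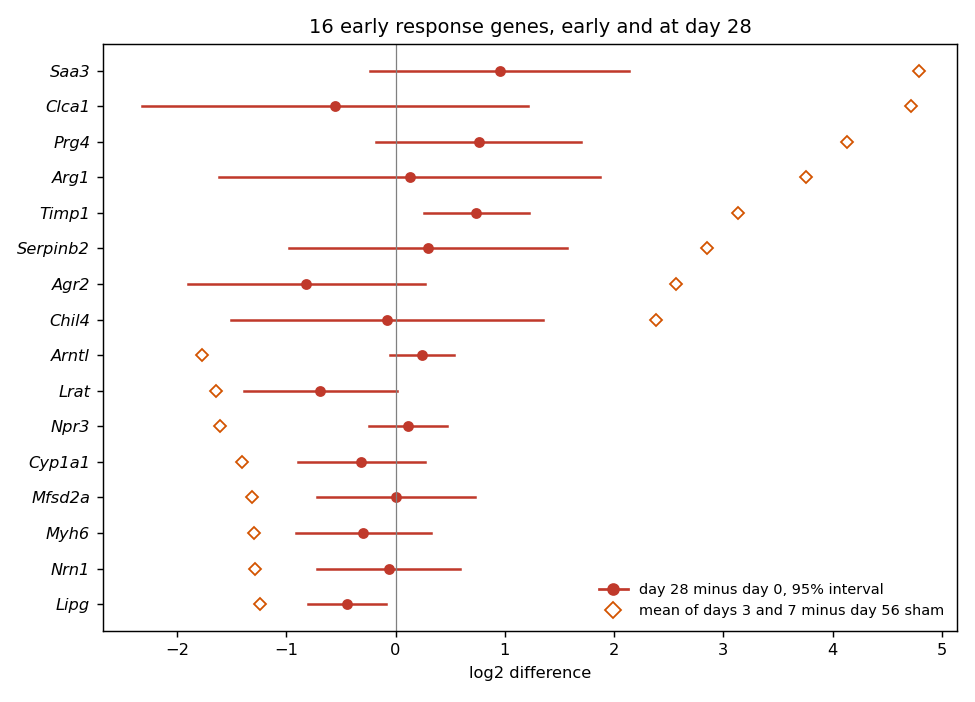
Log2 difference (x axis) of the 8 largest early rises and 8 largest early falls (y axis), with day 28 minus day 0 and its 95% interval in red and the early difference (mean of days 3 and 7 minus day 56 sham) as open orange diamonds. Timp1 has an interval of 0.26 to 1.22 and Lipg one of -0.80 to -0.09, neither of which holds 0.

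Genes of cell division lay below the starting level without passing the test. Of 28 measured mitosis genes 0 were called. At an unadjusted p under 0.05, 6 were lower and 0 higher, beside 3.73% and 3.49% of all genes. Lower in all 3 regions were 24, beside 18.3% of all genes. The median difference from day 0 was 1.42 at day 3, 1.09 at day 7, 0.13 at day 14, -0.34 at day 28, -0.33 at day 56 and -0.14 in sham. Top2a, the topoisomerase of dividing cells, had 6.03, 6.09 and 6.02 at day 28, against 6.73, 7.16 and 6.48 at day 0 (-0.74 ± 0.23, adjusted p = 0.482). Anln, the anillin of the cleavage furrow, had 6.38, 6.72 and 6.33 at day 28, against 7.01, 7.13 and 7.02 at day 0 (-0.58 ± 0.21). In both genes the groups did not overlap. Of 26 DNA replication genes 9 were lower and 0 higher at an unadjusted p under 0.05, with a median of -0.26, beside -0.21 at day 56 and -0.20 in sham. Mcm6, a subunit of the replicative helicase, had 7.15, 7.27 and 6.81 at day 28, against 7.43, 7.81 and 7.41 at day 0 (-0.47 ± 0.11, adjusted p = 0.315), and Mcm4, another subunit, 7.64, 7.61 and 7.06 at day 28, against 7.89, 7.99 and 7.86 at day 0 (-0.48 ± 0.14).

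Members of the same lists were called at day 28 against day 7. Between these days 447 genes differed (2.24%), 120 higher (0.602%) and 327 lower at day 28 (1.64%). Leaving out the day 28 cardiac lobe gave 130 and leaving out the day 28 whole lung 196. The day 7 group includes the cardiac lobe array set apart above, and 350 genes differed without the 2 arrays set apart. With all arrays, 25 of the mitosis genes fell and 18 of the DNA replication genes. Top2a had 6.03, 6.09 and 6.02 at day 28, against 8.21, 8.40 and 8.16 at day 7 (-2.21 ± 0.23, adjusted p = 0.000301). Of the early genes, Clca1, Saa3 and Prg4 had differences of -3.74 ± 0.83, -3.45 ± 0.56 and -3.27 ± 0.44 and were called lower. Their day 7 values helped to pick them as early genes, so a fall from day 7 was favoured in advance. Cyp2e1, a cytochrome P450 of ethanol metabolism, had 9.44, 9.79 and 9.71 at day 28, against 7.63, 6.40 and 8.68 at day 7 (2.08 ± 0.42, adjusted p = 0.0157), and Pdk4, a kinase that restrains glucose oxidation, rose by 1.95 ± 0.47. Car3, a carbonic anhydrase abundant in fat, rose by 1.92 ± 0.43. The adipocyte list had a median of 1.24 in this comparison, with 3 of 12 genes called higher, and its part in these rises was not tested. The groups did not overlap in Top2a and Cyp2e1, as in 15.4% of all genes.

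Matrix genes lay above day 0 in the lobes. Of 24 measured genes of fibrillar and elastic matrix 0 were called. At an unadjusted p under 0.05, 6 were higher and 0 lower, beside 3.49% and 3.73% of all genes. Higher in all 3 regions were 10, beside 19.8% of all genes. The median was 0.24 (0.36 in the medial lobe, 0.31 in the cardiac lobe and -0.04 in the whole lung). Loxl1, a cross-linker of elastin, had 8.77, 9.06 and 8.92 at day 28, against 8.24, 8.54 and 8.79 at day 0 (0.39 ± 0.11, adjusted p = 0.453). Ltbp2, a microfibril protein, had 7.36, 7.82 and 7.14 at day 28, against 6.69, 7.19 and 6.89 at day 0 (0.52 ± 0.15). Both were higher at day 28 in each region, though the day 0 whole lung value of Loxl1 lay within its day 28 range. Against day 7, 10 of the list fell, among them Tnc, the tenascin of remodelling tissue, by 1.65 ± 0.31. The list's median against day 0 was 0.25 in sham, and its median for day 28 minus sham was 0.02. Mesothelial genes had a median of 0.19 and a mean level of 9.54 to 9.71 at day 28, against 9.19 to 9.70 at day 0, and their part in the matrix values was not tested. Bnc1, a transcription factor of mesothelium, had 8.86, 8.84 and 8.91 at day 28, against 8.51, 8.21 and 8.50 at day 0 (0.47 ± 0.18), without overlap.

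Growth factor and patterning lists had medians close to 0. Of 25 growth factor signalling genes 2 were higher and 2 lower at an unadjusted p under 0.05, beside 3.49% and 3.73% of all genes. The median was -0.09 (0.16 in the medial lobe, -0.09 in the cardiac lobe and -0.21 in the whole lung). Only 10 had intervals within 0.5, beside 81.3% of all genes, so this list was bounded less closely than genes in general. Igf1, insulin-like growth factor 1, had 8.02, 8.65 and 8.61 at day 28, against 7.63, 7.92 and 7.93 at day 0 (0.60 ± 0.14, adjusted p = 0.287), without overlap. Its day 7 values were 8.41, 9.61 and 9.22. Of 31 genes of lung branching and patterning 1 was higher and 1 lower at an unadjusted p under 0.05, the median was -0.02, and 24 had intervals within 0.5. Wnt2, a ligand required for lung specification, had 6.29, 6.70 and 6.79 at day 28, against 6.99, 7.43 and 7.12 at day 0 (-0.59 ± 0.12, adjusted p = 0.202), without overlap. Acute inflammation genes, 17 in number, had a median difference from day 0 of 1.02 at day 3, 0.39 at day 7, 0.23 at day 14 and 0.11 at day 28. Cxcl1, a neutrophil chemoattractant, had 6.03, 6.05 and 6.13 at day 28, against 5.62, 5.65 and 5.80 at day 0 (0.38 ± 0.17), without overlap.

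Epithelial lists had small medians, but most were bounded less closely than genes in general. Intervals within 0.5 were found for 11 of 13 alveolar type I, 9 of 15 alveolar type II, 4 of 11 club cell and 6 of 14 ciliated cell genes, beside 81.3% of all genes. All 13 alveolar type I genes and all 15 alveolar type II genes had intervals within 1, beside 98.5% of all genes, with medians of -0.18 and -0.12. Pdpn, podoplanin of type I cells, had 11.63, 11.37 and 11.21 at day 28, against 11.67, 11.65 and 11.63 at day 0 (-0.25 ± 0.10). Sftpd, which encodes surfactant protein D, differed by -0.27 ± 0.12. Club cell genes had a median of -0.16 and ciliated cell genes -0.17. Endothelial genes had a median of -0.21 that varied by region (0.13 in the medial lobe, -0.24 in the cardiac lobe and -0.47 in the whole lung). Ednrb, an endothelin receptor, had 9.34, 9.14 and 8.25 at day 28, against 9.34, 9.79 and 9.36 at day 0 (-0.59 ± 0.22), equal in the medial lobe and lower in the other regions.

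Muscle and fat genes differed strongly between regions. All 11 skeletal muscle genes lay above 0, beside 49.8% of all genes. At an unadjusted p under 0.05, 5 were higher, beside 3.49% of all genes. The list's median of 0.54 was 0.05 in the medial lobe, 0.13 in the cardiac lobe and 1.45 in the whole lung. The mean level of this list was 5.66 to 7.01 at day 28, against 5.52 to 5.62 at day 0. Acta1, skeletal muscle actin, had 6.85, 6.76 and 9.88 at day 28, against 6.59, 6.72 and 6.82 at day 0, so the day 28 whole lung array stood apart. Of 12 adipocyte genes 11 lay above 0, with medians of 0.13 in the medial lobe, 1.94 in the cardiac lobe and -0.81 in the whole lung and a mean level of 7.70 to 9.34 at day 28, against 7.13 to 8.61 at day 0. Cidea, a lipid droplet protein of brown fat, had 5.37, 9.66 and 5.71 at day 28, against 5.54, 5.28 and 6.51 at day 0, so the day 28 cardiac lobe array stood apart. Cardiac muscle genes, which the walls of pulmonary veins also express, had medians of 0.23 in the medial lobe, -0.40 in the cardiac lobe and -0.62 in the whole lung. The part of these tissues in the other results was not tested.

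**Figure D4:**
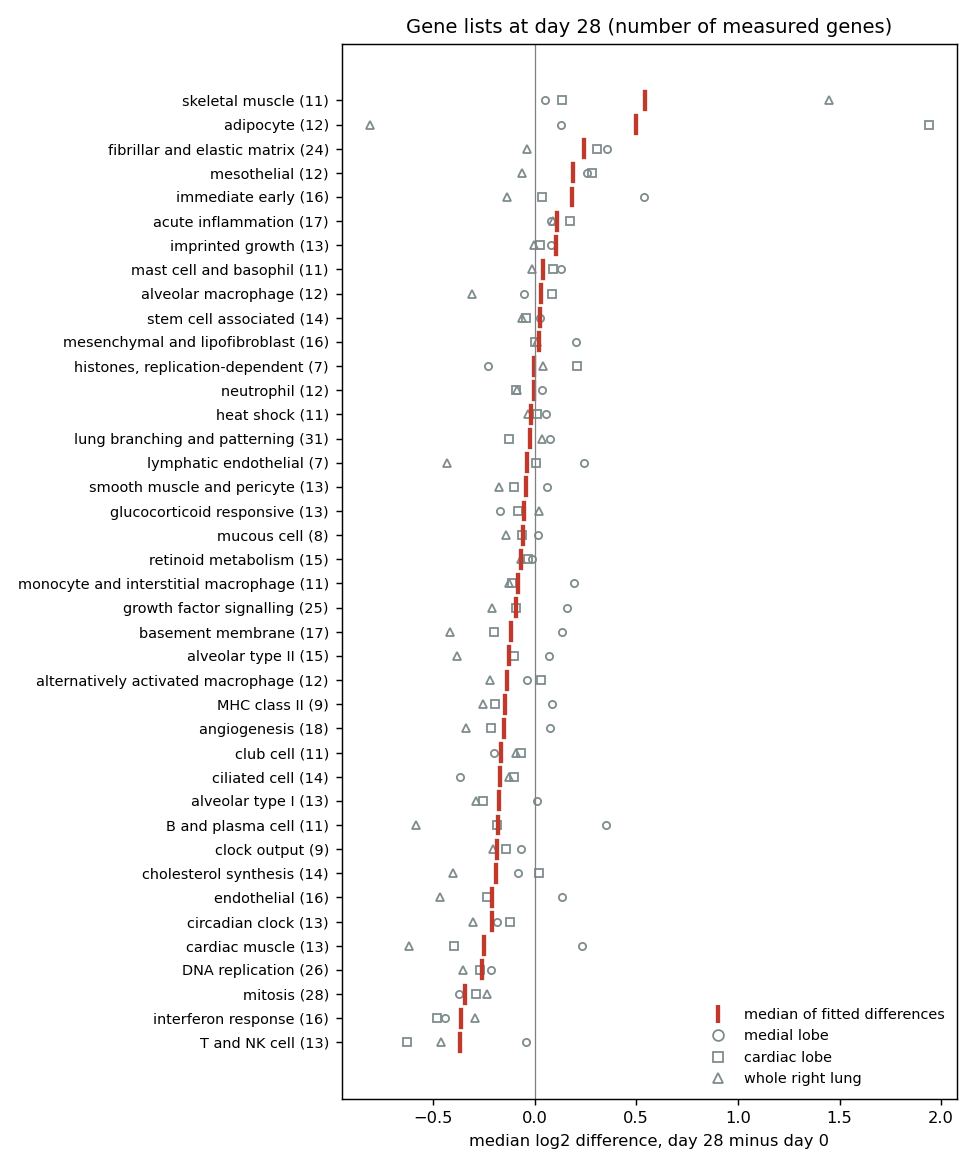
Median log2 difference of day 28 minus day 0 (x axis) of gene lists (y axis, number of measured genes in brackets), with the median of fitted differences as a bar and the medians of the 3 regions as open symbols. T and NK cell, interferon and mitosis genes lie at -0.37, -0.36 and -0.34, and the regions of the adipocyte list run from -0.81 to 1.94.

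Clock genes differed between day 28 and sham. In the circadian clock, CLOCK and ARNTL (BMAL1) activate the Per, Cry, Nr1d and Dbp genes, and the PER, CRY and REV-ERB proteins feed back as repressors, so levels depend on the hour of sampling, which the labels do not give. At day 28, 37 genes differed from day 56 sham (0.186%), 9 higher (0.0451%) and 28 lower (0.14%). Leaving out each day 28 array in turn, in the order of regions used here, gave counts of 23, 19 and 22. Of the 37 genes, 27 (73%) were also called between sham and day 0, where 0.381% of all genes were called. Both comparisons share the sham arrays. At day 28 against sham, 6 of 13 measured clock genes rose and 2 fell. Dbp, a clock output transcription factor, had 10.28, 10.23 and 9.85 at day 28, against 8.14, 7.92 and 7.08 in sham (2.41 ± 0.22, adjusted p = 7.39e-05). Arntl had 6.41, 6.23 and 6.53 at day 28, against 8.35, 8.40 and 8.01 in sham (-1.86 ± 0.14, adjusted p = 9.32e-06). The groups did not overlap in either gene, as in 9.63% of all genes, and Nr1d1, the repressor REV-ERB alpha, rose by 1.44 ± 0.15 and Nr1d2 by 1.26 ± 0.14.

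Against day 0 the clock genes were closer. Dbp had 10.28, 10.23 and 9.85 at day 28, against 10.24, 10.26 and 10.23 at day 0 (-0.12 ± 0.22), Arntl was at 0.24 ± 0.14 and Nr1d1 at 0.09 ± 0.15. Of the 13 genes 0 were called. At an unadjusted p under 0.05, 5 were lower and 0 higher, beside 3.73% and 3.49% of all genes. The list's median was -0.21, where the median for day 28 minus sham was 0.96. Per2, a period protein, had 8.32, 8.14 and 8.12 at day 28, against 9.11, 8.99 and 8.86 at day 0 (-0.80 ± 0.18, adjusted p = 0.28), and against sham it was on the other side at 0.96 ± 0.18. Ciart, a repressor of CLOCK and ARNTL, had 8.57, 8.41 and 8.11 at day 28, against 9.10, 9.22 and 8.89 at day 0 (-0.70 ± 0.26). Tef, a clock output transcription factor, had 9.20, 8.95 and 8.92 at day 28, against 9.65, 9.52 and 9.44 at day 0 (-0.51 ± 0.11, adjusted p = 0.218). These 3 genes did not overlap between day 28 and day 0, where 5.54% of all genes lay lower without overlap.

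The E-box CACGTG, which CLOCK and ARNTL bind, was searched in the same RefSeq windows, and as a palindrome it reads alike on both strands. It stood in 2349 of the 32851 windows (7.15%). Of the 13 clock genes with Tef, Hlf and Nfil3, 14 of 16 had a window and 5 of these held the E-box, in 6 of 19 windows (31.6%). Per2 and Bhlhe40 had no window and were not searched. The 200 bases before the start of 3 clock genes that lay below day 0 follow, with the E-box in capitals.

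Cry1 (chr10:85185055-85185254, minus strand): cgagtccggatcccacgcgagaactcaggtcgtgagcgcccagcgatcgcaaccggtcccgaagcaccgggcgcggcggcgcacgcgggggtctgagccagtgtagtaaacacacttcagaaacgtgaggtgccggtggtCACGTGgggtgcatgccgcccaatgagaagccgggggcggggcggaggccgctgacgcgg

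Tef (chr15:81802473-81802672, plus strand): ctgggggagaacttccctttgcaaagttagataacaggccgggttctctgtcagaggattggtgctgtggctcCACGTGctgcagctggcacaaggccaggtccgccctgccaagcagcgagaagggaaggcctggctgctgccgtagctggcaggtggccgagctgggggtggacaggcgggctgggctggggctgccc

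Ciart (chr3:95882229-95882428, minus strand): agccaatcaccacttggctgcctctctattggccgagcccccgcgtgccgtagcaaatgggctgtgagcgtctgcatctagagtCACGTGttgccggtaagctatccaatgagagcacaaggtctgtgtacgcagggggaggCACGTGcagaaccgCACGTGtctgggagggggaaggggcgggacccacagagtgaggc

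Ciart holds the E-box 3 times, at -116, -58 and -44, Cry1 holds it at -60 and Tef at -127. Bhlhe41 holds it as well, and so does Per1 in the first of its windows. The windows of Arntl, Clock, Per3, Cry2, Nr1d1, Nr1d2, Dbp, Hlf and Nfil3 do not hold these letters. Among these, Per3 also lay below day 0 (-0.40 ± 0.18), so the E-box was not shared by all lower genes.

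Chaperone genes were among those lower than in sham. Hsph1, a heat shock protein of the HSP110 family, had 8.16, 8.04 and 8.08 at day 28, against 9.56, 9.15 and 9.86 in sham (-1.43 ± 0.13, adjusted p = 9.45e-05), without overlap. Hspa5, the endoplasmic reticulum chaperone BiP, fell by 0.60 ± 0.07 and Hsp90aa1 by 0.62 ± 0.08. Against day 0 Hsph1 was at -0.10 ± 0.13, and of 11 heat shock genes 8 had intervals within 0.5. Fgf10, a growth factor of lung mesenchyme, had 6.80, 7.19 and 7.04 at day 28, against 7.57, 7.91 and 7.61 in sham (-0.69 ± 0.09, adjusted p = 0.00258), without overlap, and its difference from day 0 was -0.02 ± 0.09.

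**Figure D5:**
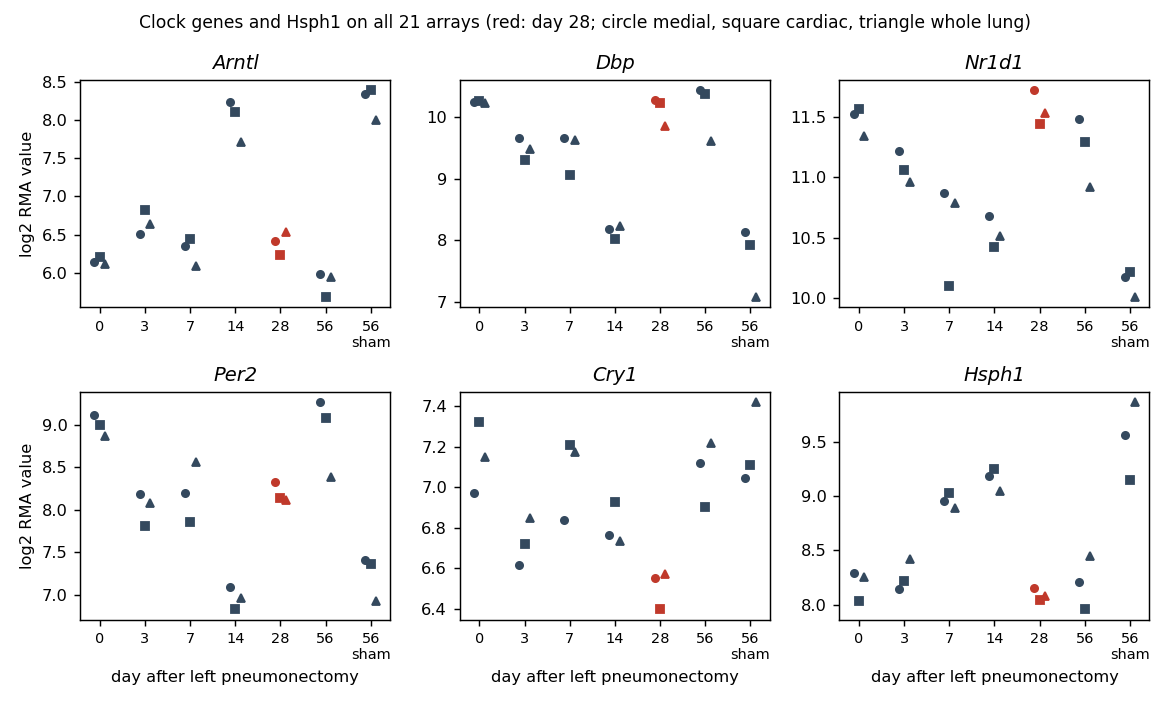
Log2 RMA value (y axis) of clock genes and Hsph1 in each condition, day 0 to day 56 with sham last (x axis), 1 point per array with the shape giving the region and day 28 in red. Day 28 lies at 6.40 to 6.57 for Cry1, below its day 0 arrays at 6.97 to 7.32.

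The steps on either side of day 28 were tested in the same fit. From day 14 to day 28, 29 genes differed (0.145%), 9 higher (0.0451%) and 20 lower (0.1%). Without the day 28 medial or cardiac lobe array there were 16 and 13. Clock genes were again among them: Dbp rose by 1.98 ± 0.22, Per2 by 1.23 ± 0.18 and Per3 by 1.16 ± 0.18, and Arntl fell by 1.63 ± 0.14. Spon2, a secreted matrix protein, had 6.43, 6.52 and 6.18 at day 28, against 8.32, 8.38 and 8.14 at day 14 (-1.90 ± 0.34, adjusted p = 0.0378). Mest, an imprinted gene of growing tissue, had 6.49, 6.49 and 6.47 at day 28, against 7.90, 7.88 and 6.96 at day 14 (-1.10 ± 0.18, adjusted p = 0.0243). The groups did not overlap in Spon2 and Mest, as in 10.3% of all genes.

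Between day 56 after pneumonectomy and day 28, 0 genes differed (0%, limma, smallest adjusted p = 0.122), with 1104 at an unadjusted p under 0.05 (5.54%). Angptl4, an inhibitor of lipoprotein lipase, had 7.22, 7.16 and 7.10 at day 56, against 7.78, 8.22 and 8.10 at day 28 (-0.87 ± 0.13, adjusted p = 0.122). Abcg2 had 7.35, 7.34 and 7.07 at day 56, against 6.87, 6.94 and 6.82 at day 28 (0.38 ± 0.07, adjusted p = 0.605). Neither gene overlapped between these days, as in 6.62% of all genes.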

How the data were processed

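RNA of 21 samples (7 conditions, 3 regions each) was measured on single-colour arrays. The deposited log2 values were made by the authors with RMA, per the submitters' processing notes; its version and settings and the genome build: not given in the sources used here. Per the labels' protocols, RNA was amplified from its 3' end, whereas the probe annotation is of a whole-transcript array, so the labelling chemistry is unsettled. The labels give 1 hybridisation date for all arrays.

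Of 35556 probe sets, 21789 carried 1 gene symbol in the platform annotation, 1621 several and 12146 none, and 21698 matched a RefSeq gene number (GRCm38.p6), used for names and promoters. Each of 19938 genes was represented by its brightest probe set. The linear model, limma 3.58.1 in R 4.3.3, had condition and region as terms, took in all 21 arrays and left 12 residual degrees of freedom. A call needed an adjusted p (Benjamini-Hochberg) under 0.05. The procedure was tested on simulated data. Pairing by region comes from the labels, and deviations of day 28 and day 0 arrays from their group means correlated by 0.099, 0.292 and 0.458 in the medial lobe, cardiac lobe and whole lung.

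The comparison, gene lists, early genes and alternatives were chosen with earlier results of these data known. Lists were described by counts and medians, with no set test. Genes named were the 5 smallest p-values each way for day 28 against day 0, the 3 largest each way in other comparisons (smallest p-values where none passed), the 8 largest early rises and falls, and the 2 smallest p-values or up to 4 called genes of a list. Predicted genes and small RNAs were passed over. Other named genes, those past 0.5 in all regions included, were chosen after their values were seen. The number of arrays limits the precision.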

Additional observations from a re-analysis of the deposited data

How the results depend on the processing

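Between day 28 and day 0, 0 genes were called without the replicate block, with probe sets of a gene averaged, with dim genes left out (12146 genes tested), with trend and robust moderation, with the 6 arrays compared alone and with both lobes alone. Centring arrays on their median gave 4, leaving out the 2 doubted arrays 19, array weights (chosen after seeing the data) 105, sham as control 37, and leaving out 1 array of day 28 or day 0 gave 0 to 1.

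Against sham, the 37 calls became 14 without the replicate block, 5 with the compared arrays alone, 126 without the 2 doubted arrays, 549 with weights and 19 to 41 without 1 array. Against day 7, the 447 became 218 without the block, 76 with the compared arrays alone and 160 in the lobes. They became 350 without the doubted arrays, 1073 with weights and 130 to 399 without 1 array. Against day 14, the 29 became 7 without the block, 47 with the compared arrays alone, 141 without the doubted arrays, 464 with weights and 13 to 40 without 1 array. Day 56 against day 28 gave 2 in the lobes, 158 with weights and 0 to 1 without 1 array. Early genes with an interval within 0.5, 1032 in all, became 400 without the block, 308 with the compared arrays alone, 565 in the lobes, 1578 without the doubted arrays, 2335 with weights and 790 to 890 without 1 array. The median of the early higher genes was -0.0873 with centred arrays, 0.0264 in the lobes and -0.0511 to 0.0317 without 1 array.

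With sham in place of day 0, genes called there with the opposite sign had values of 2.41 for Dbp, 1.26 for Nr1d2, 0.96 for Per2, 1.25 for Per3, 0.75 for Tef, -1.86 for Arntl, -1.02 for Fam124b and -0.996 for Npr3. Other genes had the opposite sign without a call, among them Ciart (1.19), Spon2 (-1.63), Cxcl9 (0.47), Ifi214 (0.29), Vpreb3 (0.25) and Mest (-0.12). Of 1840 alternative values of named genes 1782 kept their direction, and of 656 alternative list medians 67 moved by more than the spread between regions. Causes were not tested. With 3 arrays a group, differences under the median half-width of the unadjusted 95% interval, 0.236, were mostly not detectable. The adjusted threshold was stricter. Larger differences between day 28 and day 0 went uncalled in the main fit, such as -1.04 for Ifit3b and -0.69 for Gbp5.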

Other observations

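Single genes of other lists differed from day 0 without passing the test. Muc5b, the main airway mucin, had 9.60, 8.44 and 9.56 at day 28, against 9.88, 9.53 and 10.52 at day 0 (-0.78 ± 0.31), lower at day 28 in each region. Ltf, the lactoferrin of secretions and neutrophil granules, had 8.03, 7.35 and 9.02 at day 28, against 8.26, 8.14 and 9.97 at day 0 (-0.65 ± 0.29). Ccl22, a chemokine of macrophages and dendritic cells, had 6.47, 6.65 and 6.36 at day 28, against 6.80, 7.63 and 6.85 at day 0 (-0.60 ± 0.28).

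Cyp26b1, which breaks down retinoic acid, had 6.42, 6.43 and 6.48 at day 28, against 6.56, 6.91 and 8.72 at day 0 (-0.95 ± 0.32), and the day 0 whole lung array stood above the rest. Cnn1, a calponin of smooth muscle, had 8.27, 8.11 and 8.16 at day 28, against 8.63, 8.66 and 9.34 at day 0 (-0.70 ± 0.28). Wt1, a transcription factor of mesothelium, had 8.06, 8.49 and 8.79 at day 28, against 7.77, 7.76 and 8.47 at day 0 (0.44 ± 0.16). Meg3, a maternally expressed imprinted RNA, had 5.55, 6.10 and 6.92 at day 28, against 5.39, 5.45 and 5.82 at day 0 (0.63 ± 0.18). Of all 35556 probe sets, those without a single symbol included, 0 were called between day 28 and day 0 (limma, smallest adjusted p = 0.22), and 2532 had an unadjusted p under 0.05.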
